A study of Homo sapiens with 6 samples.

Results

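The HOX genes were followed across a wild-type and an AQP1 knockout clone of HuCCT1, a human cell line from cholangiocarcinoma, a cancer of the bile ducts. A row of the count table was a HOX gene where its symbol was HOXA, HOXB, HOXC or HOXD followed by a number, and 39 of 26485 rows met that rule: 11 in HOXA, 10 in HOXB, 9 in HOXC and 9 in HOXD. Polyadenylated RNA was sequenced in 6 libraries, 3 (a, b and c) from HuCCT1 CRISPR clone 1 with genotype WT and 3 (a, b and c) from HuCCT1 clone 22 with genotype AQP1 KO. The labels name no treatment and give the same serum-containing medium for both clones. AQP1 encodes the water channel aquaporin-1. Each genotype is 1 clone, so genotype and clone cannot be told apart. Nothing in the labels makes the letters separate cultures, so a p-value here reflects only library-to-library spread, possibly technical.

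HOX genes encode homeodomain transcription factors that set position along the body axis. They lie in 4 clusters on 4 chromosomes, numbered from the 3′ end (1) to the 5′ end (13), and members with the same number in different clusters (paralogs) are the most alike. In embryos the low-numbered genes are active early and toward the head, and the high-numbered genes later and toward the tail. The proteins bind DNA together with TALE homeodomain partners such as PBX and MEIS, Polycomb complexes keep silent clusters repressed, and Trithorax complexes maintain active ones.

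Library totals ranged from 36925338 to 41724447 counts, and 16476 to 17254 genes had a count in a library. Of 14405 genes tested with edgeR, 74.4% were called at a Benjamini-Hochberg adjusted p under 0.05, 37.1% higher and 37.2% lower in the knockout clone, and the groups did not overlap in 77.3%. AQP1 itself, 3.71 Mb from the HOXA cluster, had 2 to 10 counts per library in wild type and 7 to 10 in knockout, too few to test and no check of the labels. The cholangiocyte markers KRT7, KRT19 and EPCAM were present in both clones, and 5 of 7 tested markers of that list fell, among them KRT19 from 756 ± 13.8 to 93.5 ± 4.59 CPM (counts per 1000000 counts of the library; SD, n = 3), while SPP1 of the same list rose from 0.291 ± 0.0469 to 11.4 ± 1.01 CPM. Wild-type library b, with 10 SPP1 counts, was just too low for the filter on low counts, so SPP1 met it only with its knockout counts. Over all 8 cholangiocyte markers the summed level was 3098 to 3173 CPM in the wild-type libraries and 1818 to 1851 CPM in the knockout libraries. Of other cell types, 4 of 5 tested fibroblast markers were higher (summed 15.9 to 18.1 CPM against 35.5 to 38.4), namely DCN, PDGFRA, PDGFRB and LUM by 3.15-fold to 24.7-fold. DCN, the 24.7-fold end of that range, had 0, 0 and 4 counts in wild type and passed the filter on its knockout counts alone. Of that list COL1A1 was present in both clones at 306 to 441 counts per library and not called. COL1A2 and COL3A1 were at 0 to 4 counts and THY1 at 0 to 6. Both tested hepatocyte markers, FGB and SERPINA1, were higher (list sum 52.2 to 55.9 CPM against 84.3 to 91.4). FGB, with 1, 2 and 2 counts in wild type, passed the filter on its knockout counts alone. ALB, APOA1 and HNF4A were too low to test, and APOB and TTR were at 0 in every library. The leukocyte gene PTPRC was at 0 in all 6. Neither of 2 tested endothelial markers was called, 1 leukocyte marker was higher, and no neural or embryonic kidney marker reached the filter (summed at most 0.0493 CPM in wild type and 0.325 to 0.44 in knockout). The part of these shifts in the HOX results was not tested.

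The 3 promoter windows shown here belong to HOX genes that moved in different directions. They are the 250 bases before the annotated start, from RefSeq (GRCh38.p14), 5′ to 3′ on the gene's strand. HOXC4 and HOXC5 share 1 window, chr12:54016638-54016887 (plus strand), which is also where the RefSeq HOXC6 gene starts. HOXA2 has chr7:27102684-27102933 and HOXA13 has chr7:27200092-27200341, both on the minus strand and near opposite ends of the HOXA cluster. Capitals mark 4 searched motifs on either strand: CCAAT (the NF-Y box), TATAAA (the TATA box), TGACAG (bound by MEIS and TGIF proteins) and TGATTNAT (bound by PBX and HOX together).
HOXC4 and HOXC5: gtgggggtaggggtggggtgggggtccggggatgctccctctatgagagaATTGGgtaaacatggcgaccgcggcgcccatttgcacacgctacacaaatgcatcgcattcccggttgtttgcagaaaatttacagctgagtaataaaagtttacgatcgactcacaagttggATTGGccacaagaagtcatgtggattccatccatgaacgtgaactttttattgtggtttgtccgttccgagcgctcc
HOXA2: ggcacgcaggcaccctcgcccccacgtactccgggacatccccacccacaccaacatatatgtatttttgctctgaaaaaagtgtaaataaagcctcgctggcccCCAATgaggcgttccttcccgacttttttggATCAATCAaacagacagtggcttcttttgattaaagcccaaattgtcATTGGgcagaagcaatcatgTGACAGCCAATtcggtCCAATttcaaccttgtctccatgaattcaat
HOXA13: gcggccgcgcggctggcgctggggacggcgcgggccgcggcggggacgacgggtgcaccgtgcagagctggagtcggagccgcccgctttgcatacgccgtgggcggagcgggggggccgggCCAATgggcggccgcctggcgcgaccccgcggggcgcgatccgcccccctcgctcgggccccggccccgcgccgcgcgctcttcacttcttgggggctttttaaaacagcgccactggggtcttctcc
The shared HOXC4 and HOXC5 window held 2 CCAAT matches and none of the other motifs. The HOXA2 window held 4 CCAAT matches, 1 TGACAG and 1 TGATTNAT, the last at -114 from the start. The HOXA13 window held 1 CCAAT match and was 78% G and C. In the windows printed, no match overlapped a match of another motif. A match is a description of letters and not a measured binding site.

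Across the promoter table, 20 of the 39 HOX genes matched, with 27 windows, of which 7 belong to HOXA3 alone. CCAAT was in 18 of the 27 HOX windows (66.7%) and in 32.0% of all 35116 windows. The window that HOXC4 and HOXC5 share is counted for both, and with it counted once CCAAT was in 17 of 26. TATAAA was in 5 (18.5%, against 10.7%), TGACAG in 2 (7.41%, against 13%) and TGATTNAT in 2 (7.41%, against 2.48%), those of HOXA2 and HOXD11. The median G and C share was 58.8% in HOX windows and 58% in all windows, while the median ratio of observed to expected CpG was 0.888 against 0.558. The 12 matched silent genes had a median CpG ratio of 0.897 and a median G and C share of 60.4%. The 10 windows of 4 tested genes, 7 of them HOXA3's, had a lower median CpG ratio, 0.655, and a median G and C share of 49.8%.

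As a set, the HOX genes ranged from up to 2829 counts in a library to none. Of the 39, 12 had 0 counts in all 6 libraries, and 16 had at most 3 counts in every library and are called silent here (22 at a limit of 10 counts). A count of 0 allows up to 3 counts, or 0.0719 to 0.0812 CPM per library. A further 8 were low and left out by the filter on low counts, namely HOXA5, HOXA6, HOXA7, HOXA10, HOXB8, HOXB13, HOXC4 and HOXC13. The remaining 15 were tested. Of these, 6 were higher in the knockout clone (HOXA3, HOXA13, HOXC5, HOXC6, HOXC8 and HOXC9), 6 were lower (HOXA2, HOXB2, HOXB3, HOXB5, HOXB6 and HOXB9) and 3 were not called, HOXB4 and HOXB7 among them. Called members, 12 of 15, are a share near the 74.4% of all tested genes, and the groups did not overlap for 12 of 15, near 77.3%. The median log2 fold change was 0.24 over the 15 HOX genes and 0.0056 over all tested genes. HOXC5, HOXC8 and HOXC9 passed that filter on their knockout counts alone, so these counts and this median are descriptions.

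By cluster, 5 HOXB genes fell and none rose, HOXA had 2 rises and 1 fall, and the 4 tested HOXC genes rose, of which HOXC6 alone passed the filter without its knockout counts. Summed over its genes, HOXB went from 107 ± 0.464 CPM in wild type to 80.0 ± 8.17 in knockout (SD, n = 3), HOXA went from 21.1 ± 1.51 to 26.0 ± 1.42, and HOXC from 0.726 ± 0.313 to 17.8 ± 1.24. HOXD was at 0 in the wild-type libraries and had 0, 2 and 2 counts in the knockout libraries. HOXC therefore made up 0.563% of all HOX CPM in wild type and 14.3% in knockout, HOXB 83.1% and 64.7%, and HOXA 16.3% and 21.0%. In each of HOXA, HOXB and HOXC, the 3 libraries of a clone did not overlap those of the other. These sums were not tested. In bulk RNA, more cells transcribing a gene and more transcript per cell cannot be told apart.

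**Figure D1:**
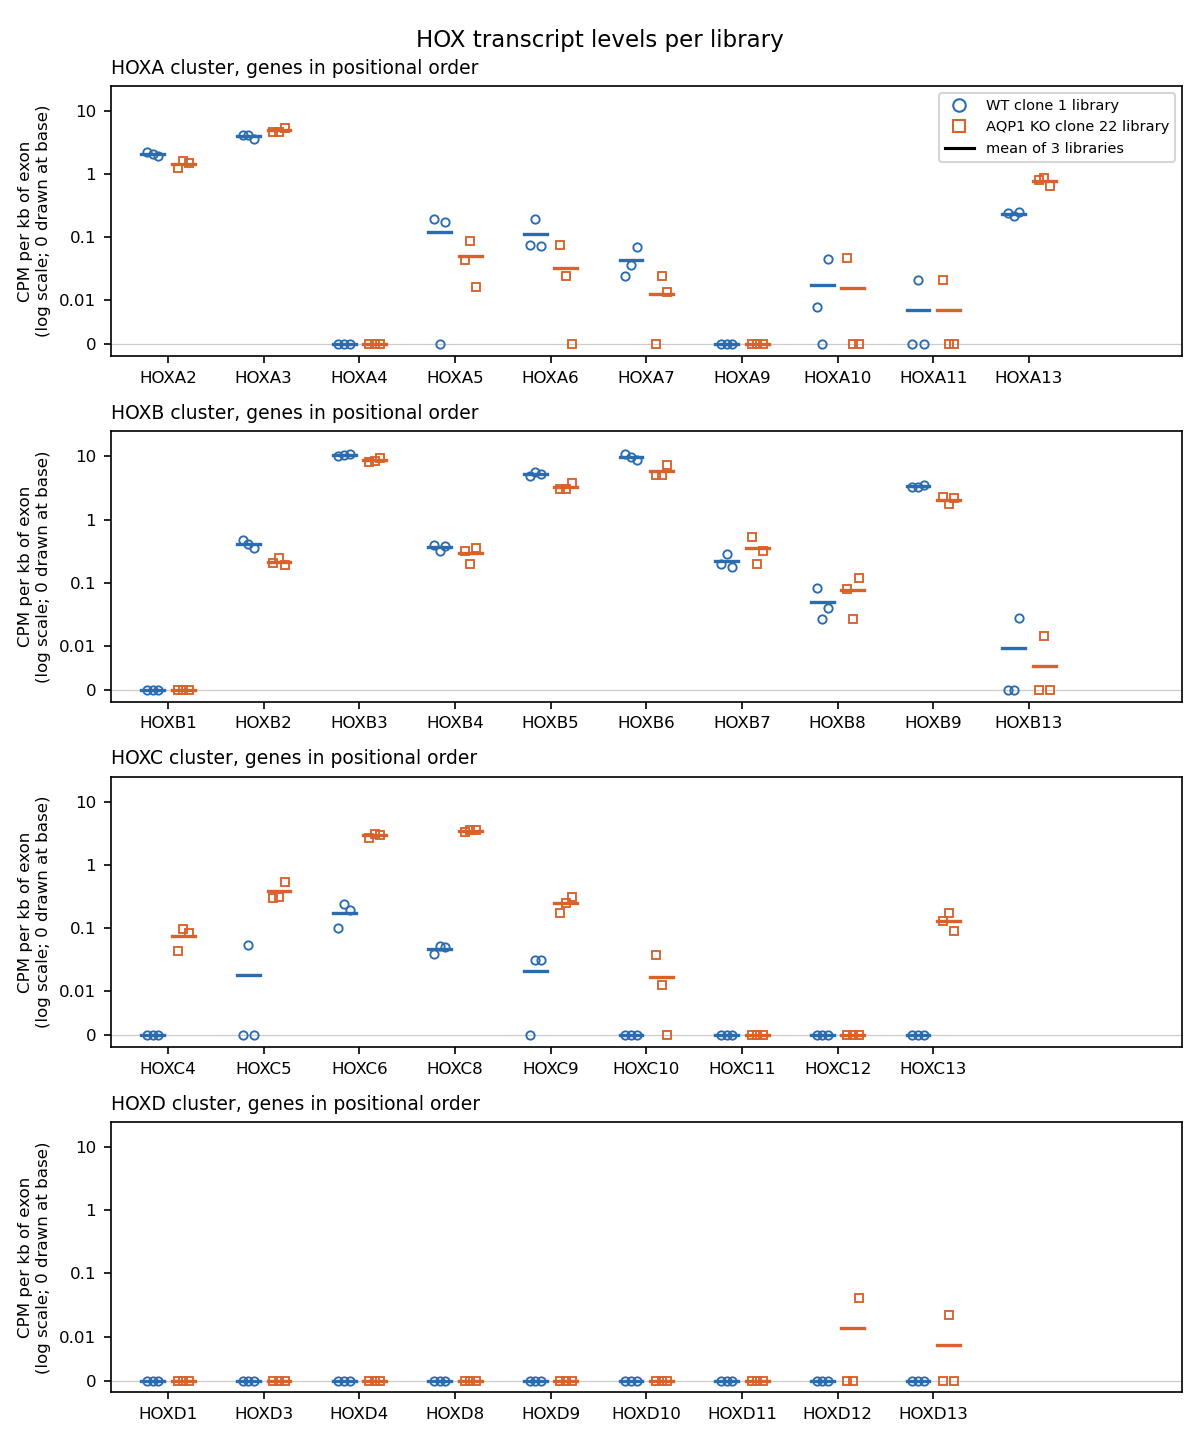
Levels of HOX genes in CPM per kilobase of exon (y axis, log scale, 0 drawn at the base), 1 panel per cluster with genes in positional order; circles are the 3 wild-type libraries, squares the 3 knockout libraries and lines their means. HOXB3 and HOXB6 were the highest in wild type, HOXC4 to HOXC9 and HOXC13 sit higher in the knockout libraries, and 7 of 9 HOXD genes are at 0 throughout.

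The HOXA cluster (chromosome 7, minus strand, 107 kb) was transcribed at its 2 ends and nearly silent between them. At the 3′ end, HOXA2, which patterns the second branchial arch, had 166, 156 and 148 counts in wild type and 94, 118 and 102 in knockout (here and below in the order a, b, c). Every knockout library was below every wild-type library, a 1.49-fold fall (log2 fold change -0.58, SE 0.17, edgeR adjusted p = 0.00743). HOXA3, needed for thymus and parathyroid formation, was the most abundant HOXA gene, with 624, 644 and 553 counts in wild type and 704, 692 and 743 in knockout. Its rise was small, 1.18-fold (log2 0.24, SE 0.086, edgeR adjusted p = 0.0218), although the groups did not overlap. Leaving out wild-type library c gave an adjusted p of 0.12 and leaving out knockout library c gave 0.0713, so that call rests on those libraries.

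Between HOXA4 and HOXA11 no member reached more than 13 counts in any library. HOXA4 and HOXA9, the latter a gene of haematopoiesis and leukaemia, had 0 counts throughout, and HOXA11, a limb and uterus gene, had 0, 2 and 0 against 2, 0 and 0. HOXA5, a lung development gene, had 13, 0 and 12 counts in wild type and 3, 6 and 1 in knockout, with overlapping groups. Its count ratio, knockout over wild type, was 0.417 with a 95% interval of 0.179 to 0.898, which covers counting error only. HOXA5 was not called in 4 of the 5 other fits that tested it, and was called lower (edgeR adjusted p = 0.0409) without wild-type library b, the wild-type library with no HOXA5 count. HOXA6 had 3, 8 and 3 against 3, 1 and 0 counts, and HOXA7 had 2, 3 and 6 against 0, 2 and 1. HOXA10, another haematopoietic and uterine gene, had 1, 0 and 6 against 6, 0 and 0. In GENCODE 29, 74.7% of HOXA7 exon bases lie opposite other genes' exons, and whether reads were counted by strand is not stated, so HOXA7 counts are uncertain. Another gene's exon on the same strand covers 31.0% of HOXA4 and 19.3% of HOXA9 exon bases, and reads there may not have been assigned.

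At the 5′ end, HOXA13, which shapes digits, hindgut and the urogenital tract, went the other way from HOXA2. It had 49, 46 and 52 counts in wild type and 166, 182 and 119 in knockout, and the lowest knockout library was above the highest wild-type library by more than the spread within either clone. The rise was 3.17-fold (log2 1.66, SE 0.21, edgeR adjusted p = 5.70e-06), from 1.19 ± 0.0685 to 3.91 ± 0.627 CPM. HOXA13 was thus the one posterior HOXA gene with a level that could be tested.

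The HOXB cluster (chr17:48528526-48728750, minus strand, 200 kb) held most HOX transcript of both clones, from HOXB2 to HOXB9. HOXB1, a hindbrain gene at the 3′ end, had 0 counts in all 6 libraries. HOXB2 was low, with 30, 26 and 23 counts in wild type and 13, 16 and 11 in knockout. The groups did not overlap, and the fall was 1.96-fold (log2 -0.97, SE 0.38, edgeR adjusted p = 0.0327). That call was lost in 5 of 6 fits that left out 1 library, with adjusted p of 0.0576 to 0.104, all but the one without wild-type library c, and in DESeq2 (adjusted p = 0.0738). HOXB3, the most abundant HOX gene of both clones, had 2602, 2702 and 2829 counts in wild type and 2088, 2166 and 2201 in knockout. It fell 1.25-fold (log2 -0.32, SE 0.055, edgeR adjusted p = 1.08e-04), a modest change with no overlap between clones. HOXB4, known for expanding haematopoietic stem cells, had 60, 49 and 60 counts against 49, 30 and 50. Its groups overlapped (log2 -0.38, SE 0.29, edgeR adjusted p = 0.26).

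The middle of HOXB fell together. HOXB5 had 407, 478 and 455 counts in wild type and 250, 256 and 286 in knockout, a 1.68-fold fall (log2 -0.75, SE 0.11, edgeR adjusted p = 4.57e-05). HOXB6 had 872, 803 and 729 counts in wild type and 405, 408 and 524 in knockout, a 1.78-fold fall (log2 -0.83, SE 0.12, edgeR adjusted p = 3.21e-05). Knockout library c was the highest of its clone for both genes, and still below every wild-type library. HOXB9 had 344, 345 and 382 counts in wild type and 240, 185 and 208 in knockout, a 1.68-fold fall (log2 -0.75, SE 0.12, edgeR adjusted p = 9.10e-05). HOXB7, between them, did not follow: 11, 16 and 10 counts against 30, 11 and 16, with overlapping groups (log2 0.62, SE 0.48, edgeR adjusted p = 0.255). Wild-type library c was just too low for the filter, so HOXB7 met it only with its knockout counts. HOXB8 was low, with 6, 2 and 3 against 6, 2 and 8. Against a 1.5-fold change HOXB6 alone of the called HOXB genes remained called. HOXB13, a prostate and hindgut gene that stands apart at the far 5′ end, had 0, 0 and 4 against 0, 2 and 0 counts.

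The HOXC cluster (chr12:53938831-54056030, plus strand, 117 kb) was close to silent in the wild-type clone and active in its central part in the knockout clone. HOXC8, a regulator of thoracic vertebrae and ribs, had 3, 4 and 4 counts in wild type and 255, 279 and 252 in knockout. The wild-type libraries were all within a few counts of the floor and the knockout libraries all far above it. The ratio of summed counts was 74.4 (95% interval 41.4 to 150, counting error only), and the fitted log2 fold change was 6.12 (SE 0.25, edgeR adjusted p = 4.25e-11). HOXC6 had 13, 32 and 26 counts in wild type and 359, 408 and 364 in knockout. It was the one HOXC gene clearly above the floor in every wild-type library, and its rise was 15.9-fold (log2 3.99, SE 0.22, edgeR adjusted p = 1.36e-09).

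The neighbours of these HOXC genes were lower but moved the same way. HOXC5 had 0, 4 and 0 counts in wild type and 22, 23 and 36 in knockout, a count ratio of 21.1 (95% interval 7.93 to 79.3) and a log2 fold change of 4.23 (SE 0.77, edgeR adjusted p = 2.14e-04). HOXC9 had 0, 2 and 2 counts in wild type and 11, 16 and 18 in knockout, a ratio of 11.7 (95% interval 4.27 to 44.9) and a log2 fold change of 3.39 (SE 0.74, edgeR adjusted p = 9.85e-04). For both genes all knockout libraries were above all wild-type libraries. HOXC4, at the 3′ end, had 0 counts in each wild-type library and 4, 9 and 7 in the knockout libraries. Against a floor of 3 counts over the wild-type group, that is 6.94-fold higher. With counting error of both groups, the exact 95% interval of that ratio starts at 5.14. HOXC13, at the 5′ end and known for its role in hair and nails, had 0 in each wild-type library and 13, 17 and 8 in the knockout libraries. Against the same floor, that is 13.2-fold higher, with an exact interval that starts at 10.2. Both were left out by the filter and were called higher when no filter was used (edgeR adjusted p = 0.00574 for HOXC4 and 2.04e-04 for HOXC13). Between HOXC9 and HOXC13 the cluster stayed silent in both clones: HOXC10 had 0 against 3, 1 and 0 counts, and HOXC11 and HOXC12 had 0 in all 6 libraries.

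HOXC4, HOXC5 and HOXC6 share exons as well as a start. In GENCODE 29, 33.9% of HOXC5 exon bases, 21.3% of HOXC4 and 14.9% of HOXC6 lie in an exon of another gene on the same strand, and reads there cannot be assigned to 1 gene. HOXC8 and HOXC9 share no exon base on their strand in that annotation. The annotation used for counting is not stated.

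The HOXD cluster (chr2:176087487-176190907, plus strand, 103 kb) was silent in both clones. HOXD1, HOXD3, HOXD4, HOXD8, HOXD9, HOXD10 and HOXD11 had 0 counts in all 6 libraries. HOXD12 had 2 counts in knockout library c, and HOXD13, a digit and limb gene, had 2 in knockout library b. No HOXD gene passed the filter. With no filter, HOXD12 and HOXD13 were not called (edgeR adjusted p = 0.362 for both), and a difference was not detectable at this depth.

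**Figure D2:**
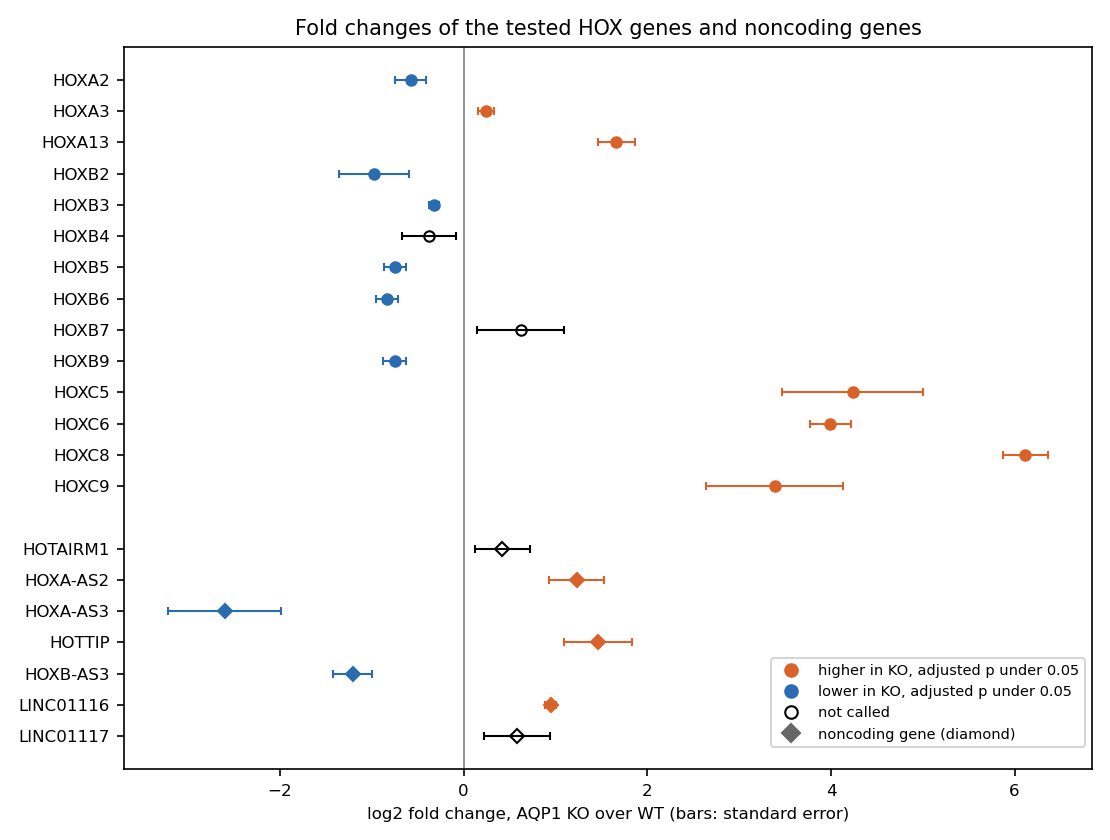
Log2 fold change of knockout over wild type (x axis, bars are standard errors) for tested HOX genes in positional order (circles) and 7 tested noncoding genes in or near the clusters (diamonds; LINC01116 and LINC01117 lie beyond HOXD). The 4 HOXC genes are at 3.39 to 6.12, all called HOXB genes are below 0, and HOXA2 and HOXA13 lie on opposite sides of 0.

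Per kilobase of exon, which makes genes of different length comparable, HOXB3 and HOXB6 were highest in wild type at 10.5 ± 0.293 and 9.94 ± 1.03 CPM per kb, a difference within their spread. HOXB5 followed at 5.31 ± 0.376, then HOXA3 at 4.02 ± 0.353, HOXB9 at 3.36 ± 0.167 and HOXA2 at 2.10 ± 0.152. All other members were at or below 0.410 CPM per kb (HOXB2). In knockout HOXB3 was again the highest at 8.70 ± 0.711, then HOXB6 at 5.80 ± 1.25 and HOXA3 at 4.93 ± 0.481, which overlap in their spread. HOXC8 came next at 3.51 ± 0.176, within the spread of HOXB5 at 3.29 ± 0.441, and HOXC6 was at 2.94 ± 0.200. HOXC8 and HOXC6 thus stood above HOXB9 (2.07 ± 0.280), HOXA2 (1.46 ± 0.169) and HOXA13 (0.778 ± 0.125). With coding length in place of exon length, HOXB3 and HOXB6 kept the 2 highest places in both clones, HOXB9 passed HOXA3 in wild type, and in knockout HOXC6 passed HOXC8 and HOXA13 passed HOXA2.

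Sums by position number were lower in knockout for groups 1 to 3, within their spread for groups 4 to 8 and close for groups 9 to 13. In groups 9 to 13 HOXB9 fell while HOXA13 rose. These sums were not tested. Groups 1 to 3 summed to 85.9 ± 0.186 CPM in wild type and 76.7 ± 6.55 in knockout, groups 4 to 8 to 33.2 ± 1.59 and 37.0 ± 4.27, and groups 9 to 13 to 9.99 ± 0.611 and 10.1 ± 0.620. Silent genes were 3 of 8 in groups 1 to 3, 3 of 15 in groups 4 to 8 and 10 of 16 in groups 9 to 13. In groups 5, 6 and 9 the called paralogs moved in opposite directions: HOXB6 fell and HOXC6 rose, HOXB9 fell and HOXC9 rose, and HOXB5 fell and HOXC5 rose. HOXC5 and HOXC9 passed the filter on their knockout counts alone, so for groups 5 and 9 the filter partly sets that contrast. In group 2 HOXA2 and HOXB2 both fell, and in group 13 HOXA13 rose and HOXC13 had counts in the knockout libraries alone. In group 8 the sum went from 0.0961 to 3.59 CPM per kb, nearly all of it HOXC8 in knockout. In group 3, the most abundant, HOXB3 fell and HOXA3 rose, and HOXD3 had no count.

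Noncoding genes are interleaved with the HOX genes, many of them antisense. Of 32 names listed, 27 were in the table, 13 of these had 0 counts throughout, and 7 were tested. Of the 7, 3 were higher, 2 lower and 2 not called, beside 37.1% higher and 37.2% lower over all tested genes. HOTTIP, a noncoding RNA just 5′ of HOXA13, had 17, 18 and 9 counts in wild type and 42, 47 and 33 in knockout, with no overlap (log2 1.46, SE 0.37, edgeR adjusted p = 0.00289). Wild-type library c was too low for the filter, so HOTTIP met it only with its knockout counts. HOTTIP and HOXA13 were both higher. HOXA-AS2, beside HOXA3, had 18, 21 and 28 counts against 52, 56 and 49 (log2 1.23, SE 0.30, edgeR adjusted p = 0.00228). HOXA-AS3, opposite HOXA5 to HOXA7, had 10, 34 and 25 counts against 6, 3 and 2, a fall that is the largest of the 7 (log2 -2.60, SE 0.61, edgeR adjusted p = 0.00164). It passed the filter on its wild-type counts alone, so the filter partly sets that direction. HOTAIRM1, beside HOXA2, was not called (50, 36 and 31 against 52, 45 and 59 counts).

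In HOXB, HOXB-AS3, antisense to the HOXB5 and HOXB6 region, had 242, 211 and 213 counts in wild type and 77, 82 and 126 in knockout, with no overlap (log2 -1.21, SE 0.21, edgeR adjusted p = 1.49e-04). It was lower together with HOXB5 and HOXB6, and with no strand setting stated, reads of the overlapping parts cannot be assigned (14.4% of HOXB6 exon bases lie opposite another exon). In HOXC no noncoding gene was tested: HOXC-AS2 had 1, 1 and 1 counts against 4, 7 and 15, HOXC-AS1 had 0 against 1, 1 and 3, and HOTAIR had a single count, in knockout library b. In HOXD, HAGLR, HAGLROS and HOXD-AS2 had 0 counts throughout. LINC01116, beyond the cluster at chr2:176611437-176637609, had 603, 626 and 681 counts in wild type and 1211, 1301 and 1154 in knockout (log2 0.95, SE 0.060, edgeR adjusted p = 5.20e-09). Its neighbour LINC01117 was not called (28, 32 and 51 against 55, 81 and 31 counts).

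The clusters also carry microRNA genes of the miR-196 and miR-10 families, known to target HOX transcripts. The mature miR-196 sequences from MIR196A1 (HOXB), MIR196A2 (HOXC) and MIR196B (HOXA) share a seed, shown in capitals (bases 2 to 8), and miR-10a, from HOXB, has another.
hsa-miR-196a-5p: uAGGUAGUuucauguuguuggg
hsa-miR-196b-5p: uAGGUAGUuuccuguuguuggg
hsa-miR-10a-5p: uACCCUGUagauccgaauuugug
A match to the miR-196 seed, ACTACCT, was in the 3′ UTR of 9 of 39 HOX genes (23.1%), against 7.10% of 19115 genes, among them HOXA5, HOXA7, HOXA9, HOXB1, HOXB6, HOXB7, HOXB13 and HOXC8. HOXC8, the HOX gene with the largest fitted rise, holds 2 such sites (GENCODE 29, GRCh38), with the seed match in capitals.
HOXC8 site, chr12:54011495-54011516: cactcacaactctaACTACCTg
HOXC8 site, chr12:54012231-54012252: taaatctttaacatACTACCTa
A match to the miR-10a seed, ACAGGGT, was in 3 of 39 (7.69%), HOXA3 and HOXB3 among them, against 12.6% of all genes. Polyadenylated libraries do not measure mature microRNAs. The counts at the hairpin genes were 5, 6 and 0 against 0 for MIR196A1, 0 against 2, 0 and 4 for MIR10A, and 0 throughout for MIR196A2 and MIR196B.

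Genes around each cluster were compared to see how far the HOX values stood from their surroundings. Over all tested genes, 37.1% were higher and 37.2% lower. Neighbours that passed the filter only with their knockout counts, or only with their wild-type counts, are included, so the counts and medians are descriptions. The nearest gene on a side is the nearest tested one. Within 2 Mb of HOXA, 13 neighbours were tested, with 7 higher, 4 lower and 2 not called and a median log2 fold change of 0.17 (0.0024 within 1 Mb; HOX median 0.26). The nearest were SKAP2 (0.17, SE 0.028, edgeR adjusted p = 9.80e-05) and HIBADH (0.17, SE 0.041, adjusted p = 0.00201). The extremes were CPVL, from 0.275 ± 0.156 to 26.2 ± 1.10 CPM, and SNX10, from 44.3 ± 1.46 to 33.0 ± 0.106 CPM. Around HOXB, 59 were tested, 14 higher, 34 lower and 11 not called, with a median of -0.33 (HOX median -0.75), so neighbours and HOXB genes were both mostly lower. The nearest, LOC101927166, fell (log2 -2.23, edgeR adjusted p = 0.00556) and TTLL6 rose (1.24, adjusted p = 0.00308). LOC101927166 was low, at 0.863, 0.266 and 1.10 CPM in wild type and 0.098, 0.0733 and 0.325 in knockout. It met the filter only with its wild-type counts. The extremes were EPN3, from 9.17 ± 0.260 to 1.06 ± 0.283 CPM, and PHOSPHO1, at 0 in the wild-type libraries and 0.416, 0.562 and 0.596 CPM in the knockout libraries. PHOSPHO1 thus passed the filter on its knockout counts alone.

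Around HOXC, 62 neighbours were tested, 33 higher, 12 lower and 17 not called, with a median of 0.21 (0.37 within 1 Mb and 0.10 within 5 Mb), and HOXC6 was at 3.99. The 4 tested HOXC genes had a median of 4.11, which the filter partly sets, since 3 of them passed it on their knockout counts alone. The nearest tested genes flank the cluster at 211 and 102 kb: CALCOCO1 rose (log2 1.27, SE 0.064, edgeR adjusted p = 4.95e-10) and SMUG1 was not called (-0.15, SE 0.074, adjusted p = 0.0861). The extremes were KRT18, an epithelial keratin, from 1153 ± 21.6 to 279 ± 1.99 CPM, and PDE1B, at 0 in wild type and 0.857, 1.08 and 0.894 CPM in knockout. PDE1B likewise passed the filter on its knockout counts alone. Around the silent HOXD cluster, 17 neighbours were tested, 15 higher, none lower and 2 not called, with a median of 0.44. KIAA1715 (0.48, SE 0.028, edgeR adjusted p = 2.05e-09) and MTX2 (0.13, SE 0.045, adjusted p = 0.0182) are its nearest tested genes, and the largest rise was LOC100130691 (2.61, SE 0.35, adjusted p = 1.21e-05). The MTX2 call was lost without wild-type library a and without knockout library a. Tested genes on both sides of HOXD were thus transcribed while the HOXD genes between them were silent. EVX2, beside HOXD13 at chr2:176077472-176083962, had 0 counts in every library.

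**Figure D3:**
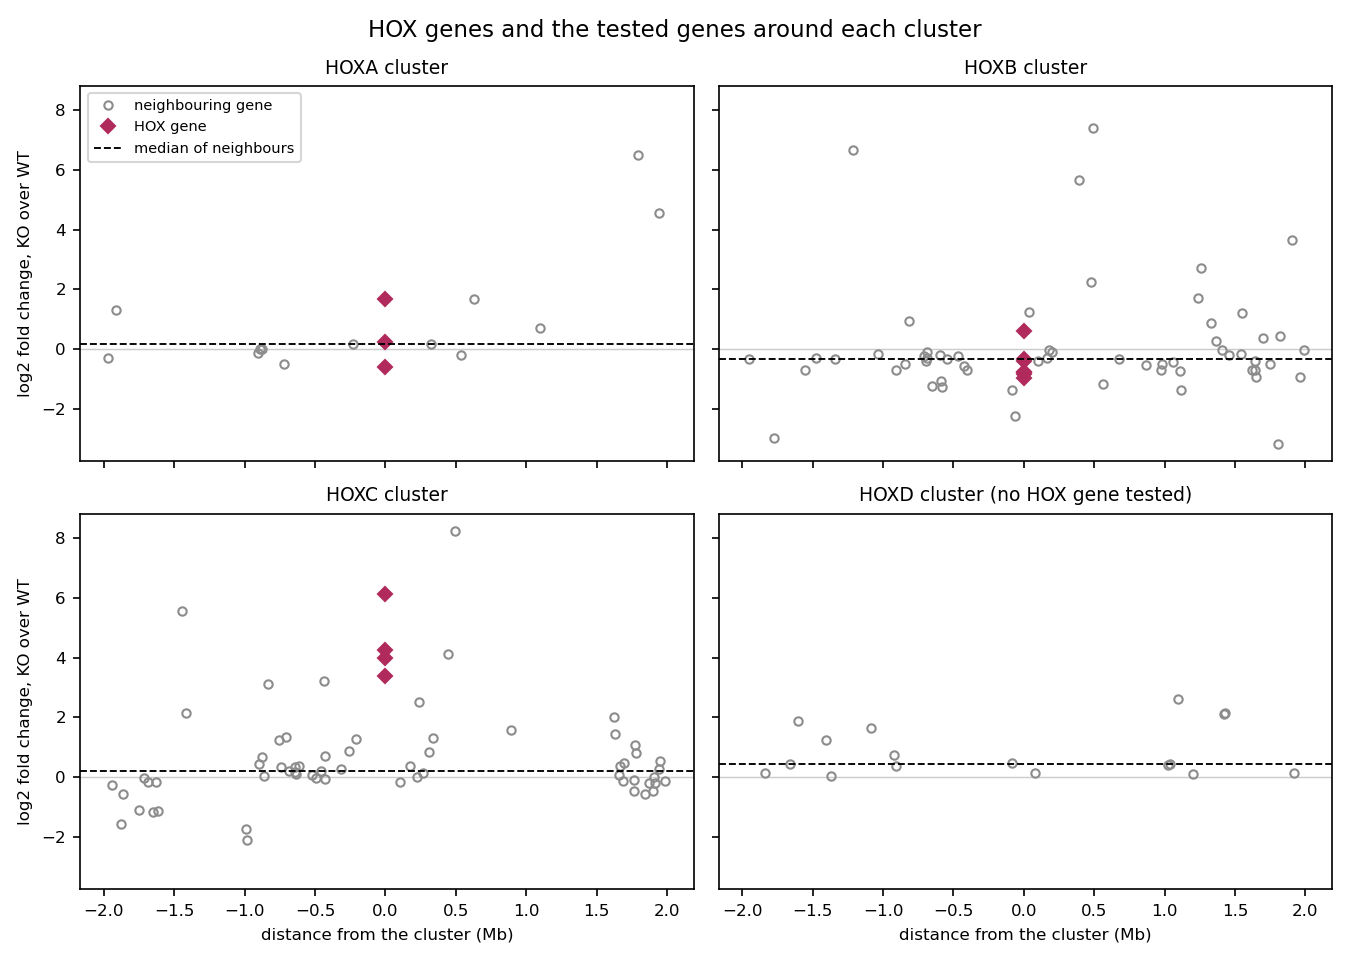
Log2 fold change of knockout over wild type (y axis) against distance from each cluster in Mb (x axis) for tested neighbours (circles) and tested HOX genes (diamonds at 0), with the median of neighbours dashed. The medians are 0.17, -0.33, 0.21 and 0.44 for HOXA, HOXB, HOXC and HOXD, and the 4 HOXC genes lie at 3.39 to 6.12, with 3 of them tested only because of their knockout counts.

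The list called TALE partners here held 12 genes: PBX, MEIS, PKNOX and TGIF genes, and PBXIP1. Of these, 11 were tested, with 5 higher, 2 lower and 4 not called and a median of 0.40. That is fewer called than the 74.4% of all tested genes, and a share higher that is near 37.1%. MEIS3 had 25, 39 and 4 counts in wild type, library c being the lowest, and 225, 178 and 195 in knockout (log2 3.13, SE 0.41, edgeR adjusted p = 1.05e-05). Wild-type library c was too low for the filter, so MEIS3 met it only with its knockout counts. The split and median of this list are thus descriptions. MEIS2, PBX4 and PBX3 also rose, by log2 1.38, 1.07 and 0.71. The 2 lower members were not PBX, MEIS or PKNOX genes. TGIF2, a TALE repressor, fell (log2 -0.64, SE 0.063, edgeR adjusted p = 5.06e-07), as did PBXIP1, which binds and inhibits PBX proteins (-0.26, SE 0.076, adjusted p = 0.00635). MEIS1, PBX2, PKNOX1 and TGIF1 were not called, and PKNOX2 had at most 2 counts in any library.

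**Figure D4:**
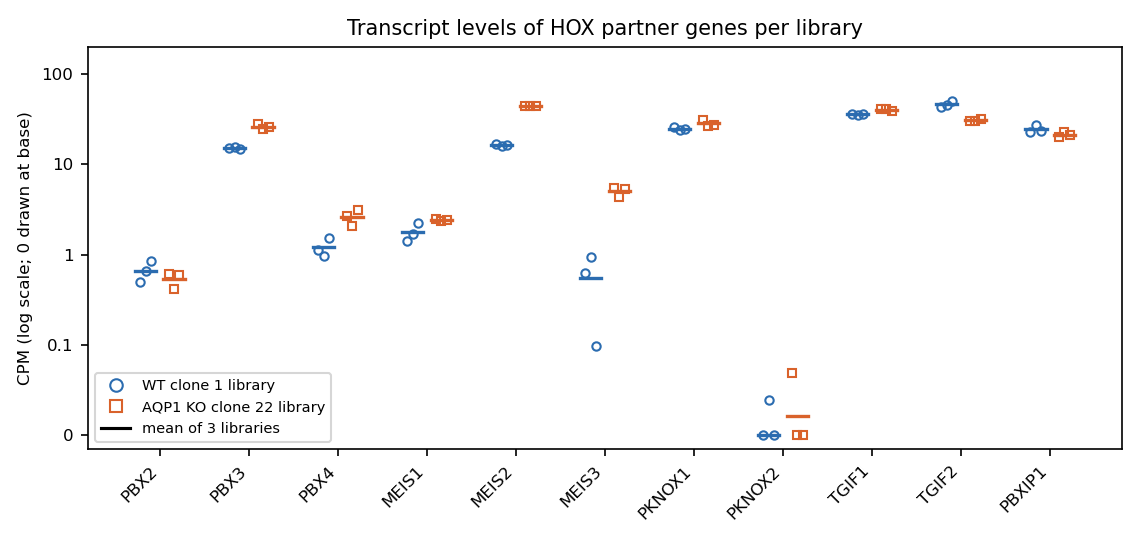
Levels of TALE partner genes in CPM (y axis, log scale, 0 drawn at the base) in the 3 wild-type libraries (circles) and 3 knockout libraries (squares), with means as lines. MEIS2 rises from 16.4 to 44.4 CPM, with no overlap between clones, while PBX2 and PKNOX2 overlap.

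Members of each list of chromatin regulators moved in both directions, as did all tested genes (37.1% higher and 37.2% lower). The counts below are descriptions beside those shares. Of 32 tested Polycomb genes, 9 were higher, 11 lower and 12 not called, with a median of 0.02. BMI1, a subunit of Polycomb repressive complex 1, rose from 117, 106 and 107 counts to 294, 280 and 232 (log2 1.29, SE 0.14, edgeR adjusted p = 1.72e-06), and YAF2, a subunit of variant complexes, rose by log2 0.81. CBX6, a chromodomain subunit, and RNF2, the ubiquitin ligase of the complex, fell (log2 -1.05 and -1.02). Of 26 Trithorax genes, 10 were higher, 9 lower and 7 not called (median 0.03), with PSIP1, which ties MLL complexes to chromatin, and the acetyltransferase KAT6B at 0.81 and 0.68, and the methyltransferase DOT1L and the MLL subunit RBBP5 at -0.55 and -0.52. Of 12 genes of chromosome architecture, 4 were higher, 5 lower and 3 not called (median -0.06). The cohesin factors PDS5B and RAD21 were at 0.59 and 0.34, and STAG1 and PDS5A at -0.51 and -0.25. All members named here passed at an edgeR adjusted p under 0.05, and all 4 architecture genes, DOT1L and RBBP5 lost the call when tested against a 1.5-fold change.

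Among regulators upstream of HOX genes, 18 of 24 were tested, with 7 higher, 6 lower and 5 not called and a median of 0.01. The shares over all tested genes were 37.1% higher and 37.2% lower. Retinoic acid, which activates low-numbered HOX genes in embryos, had members at both ends. CYP26B1, which degrades it, had 23, 26 and 19 counts in wild type and 482, 434 and 382 in knockout (log2 4.25, SE 0.17, edgeR adjusted p = 3.24e-11). CRABP2, which carries it to the nucleus, fell from 6646, 6755 and 7009 counts to 1353, 1365 and 1190 (log2 -2.38, SE 0.031, edgeR adjusted p = 4.93e-16), and the receptor RARA fell by 0.67 on the log2 scale. The other 2 retinoic acid receptors, RARB and RARG, rose by log2 1.21 (SE 0.27, edgeR adjusted p = 9.51e-04) and 1.36 (SE 0.078, adjusted p = 1.82e-09). EGR2, a hindbrain regulator of HOXA2 and HOXB2, rose from 4, 10 and 15 counts to 38, 27 and 24 (log2 1.61, SE 0.46, edgeR adjusted p = 0.00635). Wild-type libraries a and b were too low for the filter, so EGR2 met it only with its knockout counts. The split and median of this list are thus descriptions.

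Of 45 homeobox genes outside the clusters, 21 had no count in any library and 17 were tested. Of these, 12 were higher, 2 lower and 3 not called, with a median of 1.07. Over all tested genes, 37.1% were higher and 37.2% lower. MSX2, PDX1, DLX1, DLX2 and DLX3 passed the filter on their knockout counts alone. MEOX1, called higher, with 2, 10 and 17 wild-type counts, and EMX1, not called, with 7, 16 and 18, also met it only with their knockout counts. This split and median are thus descriptions. MEOX2, with 15, 8 and 20 counts in wild type and 0 in each knockout library, was left out by the filter. MSX2, a BMP target, had 7, 8 and 4 counts in wild type and 339, 326 and 342 in knockout (log2 5.71, SE 0.23, edgeR adjusted p = 4.20e-11). PDX1, a pancreas and duodenum factor, had 0, 2 and 2 against 26, 24 and 23 counts (log2 4.07, SE 0.64, edgeR adjusted p = 6.06e-05). BARX2 had 705, 780 and 760 counts in wild type and 37, 44 and 34 in knockout (log2 -4.28, SE 0.12, edgeR adjusted p = 9.98e-13). MNX1 had 146, 179 and 162 against 37, 41 and 32 (log2 -2.14, SE 0.20, edgeR adjusted p = 3.58e-07).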

How the data were processed

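Polyadenylated RNA of 6 HuCCT1 libraries (3 per clone) was sequenced after stranded TruSeq library preparation, per the labels' protocols. The authors deposited 1 table of raw read counts per gene symbol. The tools named in the submitters' processing notes are HISAT2, Trimmomatic 0.33, edgeR and FastQC, and the build is hg38. For the counter, its annotation and its strand setting, nothing is stated (not given in the sources used here).

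Counts were tested on the whole table with edgeR 4.0.16 (R 4.3.3; filterByExpr filter, TMM factors, quasi-likelihood test of knockout against wild type, two-sided, no covariate, Benjamini-Hochberg adjustment over 14405 genes, threshold 0.05). Ratios for genes left out by the filter carry exact 95% binomial intervals, and floors of 3 counts likewise cover counting error only. CPM is counts per 1000000 counts of the library. Exon lengths are unions of GENCODE 29 basic exons, and coordinates are RefSeq's (GRCh38, the same assembly as hg38). Alternatives were RLE factors, library totals, 2 other filters, DESeq2 1.42.0, limma-voom (limma 3.58.1), leaving out each library, a replicate block by letter, an adjusted p of 0.01 and a test against a 1.5-fold change.

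HOX genes were all counted, and 1 HOX gene and 1 partner gene are not reported here. Of other lists the 2 strongest called members in each direction were named, and of neighbours the nearest tested gene on each side and the extremes within 2 Mb. The other called TALE partners named, RARB, RARG, the cell type markers and the noncoding genes beyond that rule were named after their values were seen. Members and lists were chosen with earlier results of these data known. The fit was tested on simulated counts.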

Additional observations from a re-analysis of the deposited data

How the results depend on the processing

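The fold changes of the 15 tested HOX genes were recomputed under all alternatives, giving 221 values, of which 203 kept direction and side of the threshold, 18 kept direction and lost the call, and none reversed. HOX genes called higher numbered 4 to 8 and those called lower 5 or 6, except against a 1.5-fold change, where 1 was lower. That test also left 0 TALE partners lower, 3 Polycomb genes higher and 4 lower, 2 Trithorax genes higher and 0 lower, 0 architecture genes in either direction and 1 upstream regulator lower. A minimum of 1 CPM in 3 libraries left 1 noncoding gene lower. The letters a, b and c did not pair the libraries (correlations of 0.058, -0.019 and 0.008 for the same letter), and with the letters as a replicate block 6 HOX genes were higher and 5 lower, HOXB2 losing its call (edgeR adjusted p = 0.0706). The median log2 fold change of neighbours depended on the setting for HOXA (0.22 with library totals, 0.0024 within 1 Mb, 0.14 to 0.19 leaving out 1 library), HOXC (0.26 with library totals, 0.33 with no filter, 0.16 with a 1 CPM minimum, 0.37 within 1 Mb, 0.10 within 5 Mb, 0.19 to 0.24 leaving out 1 library) and HOXD (0.49 with library totals, 0.46 with no filter, 0.38 within 5 Mb, 0.44 to 0.48 leaving out 1 library). The cause was not tested. Coding length was taken from GENCODE, chosen after seeing the data, and the planned length from RefSeq proteins was not run. PKNOX1 and TGIF1 were called higher in 7 and 6 alternatives, MEIS1 without wild-type library c and LINC01117 without knockout library c. Depth limits what can be said of the 24 HOX genes that were not tested.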
